A study of Rattus norvegicus with 12 samples.

Results

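Liver RNA of rats that ate a diet with 0.1% wakame powder was compared with liver RNA of rats on the control diet. These are 8 of the 12 arrays of the study, 4 per diet, chosen from the diet named in each array's label. The other 4 arrays came from rats on 1% wakame and are used here to ask whether a difference belongs to the small dose.

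All rats were male Sprague Dawley, 9 weeks of age at sampling. The control rats ate the purified AIN-93G diet, made of casein, corn starch and cellulose with 7% fat. The other groups ate that diet with wakame powder added at 0.1% or at 1%, each over 28 days. Wakame is a brown seaweed eaten as food. Per the design text a diet had 6 rats in cages of 3, so effects of cage and diet cannot be told apart, and food intake was measured per cage. The labels call the 4 arrays of a diet biological replicates.

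The liver keeps blood glucose steady by making glucose from lactate, glycerol and amino acids when insulin is low, and by storing or burning it when insulin is high. Insulin represses the genes of glucose release and, through the sterol regulatory factor SREBP-1c and the glucose sensor ChREBP, induces those of glycolysis and fatty acid synthesis. Amino acid breakdown supplies carbon for new glucose and sends its nitrogen to the urea cycle. Cholesterol leaves the liver in part as bile acids, whose first synthetic step is made by Cyp7a1.

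The deposited table held 31099 probe sets, each a set of short probes against a transcript, with values read here as log2 signal. Of the 31042 that are not manufacturer's controls, 27802 (89.6%) had a standard deviation over the 12 arrays of at most 0.01 log2. They are counted as unmeasured. The 3240 varying probe sets covered 2301 genes by a single symbol. Over them the 8 arrays correlated at 0.89 to 0.961. The Actb 3-prime minus 5-prime difference, which grows as RNA breaks down, was 2.31 ± 0.13 log2 in control and 2.25 ± 0.15 with 0.1% wakame (SD, n = 4, exact permutation p = 0.629, two-sided). Array 4 of the 0.1% diet, called low 4, lay farthest from control along the first principal component, at 16.31 against −7.91 to 2.59 in the other 3 low arrays, so counts are also given without it.

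No named gene passed the test at 0.1% wakame in the fit of all 12 arrays. Of the 3240 probe sets, 2 fell and 0 rose at an adjusted p under 0.05 (limma, 0.0617% of those tested), and neither has a gene named here. Probe set 1391718_at was at 8.92, 8.42, 8.97 and 8.43 log2 in control and at 7.34, 7.16, 6.35 and 6.86 with 0.1% wakame. It fell by 1.76 ± 0.23 on the log2 scale (limma, SE, adjusted p = 0.0363, 4 arrays per diet). Every low array lay below every control array, and the 1% arrays, at 6.24 to 6.81, lay below control as well. Probe set 1391407_at was at 9.38, 8.66, 9.33 and 9.10 in control and at 8.07, 7.45, 6.88 and 7.52 with 0.1% wakame, and fell by 1.64 ± 0.23 (adjusted p = 0.0440). Its 1% arrays lay lower still, at 6.37 to 6.76. With any one of low 3, low 4, control 1, control 3 or control 4 left out neither of them was called, and without low 2 only the former was. By the same test 54 of the 3240 (1.67%) changed with 1% wakame, against the same control arrays. All gene values below are therefore differences that did not pass, given with the spread of the arrays. Unadjusted p under 0.05 was reached by 371 probe sets (11.5%), and by 106 genes lying higher (4.61% of 2301) and 144 lying lower (6.26%). Those shares, and the 2.65% and 2.96% of genes whose low arrays lay wholly above or below control, are the background for the counts of gene list members at that p or with separate arrays that follow. For counts of direction the background is 1042 of the 2301 genes higher and 1259 lower.

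Among gluconeogenic and insulin-repressed genes, Igfbp1, Klf15 and Pck1 lay higher with 0.1% wakame and the rest gave no common direction. In the list of gluconeogenic and insulin-repressed genes 21 of 29 members on the array varied, and 13 lay higher and 8 lower, with a median difference of 0.03 log2 against −0.01 over all genes. Unadjusted p was under 0.05 for 4 higher members and 1 lower, and 3 had low arrays wholly above control. Without low 4 the direction of the count turned, to 9 higher and 12 lower, while 4 higher members and 1 lower still had an unadjusted p under 0.05. The median without low 4 was −0.01.

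Igfbp1 encodes a secreted protein that binds insulin-like growth factors and is repressed by insulin. It was at 6.45, 8.12, 9.71 and 7.89 log2 in control, at 10.99, 10.49, 10.03 and 11.51 with 0.1% wakame and at 9.56, 10.76, 8.58 and 8.41 with 1%. All 4 low arrays lay above all 4 control arrays, by 2.71 ± 0.69 log2 or 6.55-fold on average (SE, limma, adjusted p = 0.196). The 1% arrays overlapped both other diets, and low minus high was 1.43 (limma, unadjusted p = 0.0651). Pck1 encodes the cytosolic enzyme that commits oxaloacetate to new glucose. It was at 11.82, 12.71, 13.04 and 12.84 in control and at 13.42, 13.26, 13.30 and 13.37 with 0.1% wakame. The low arrays were close together and all above control, with a difference of 0.73 ± 0.22 (adjusted p = 0.223), and the 1% arrays lay at 13.02 to 13.36. Klf15, a transcription factor that promotes gluconeogenesis and amino acid breakdown, was at 8.55, 9.26, 9.57 and 8.94 in control and at 10.31, 9.87, 10.01 and 11.01 with 0.1% wakame. Its low arrays lay above all control arrays by 1.22 ± 0.28 (adjusted p = 0.19), and its 1% arrays also did, by 1.05 on average.

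The other named gluconeogenic and insulin-repressed genes gave smaller differences. Slc37a4, the transporter that brings glucose 6-phosphate to the phosphatase in the endoplasmic reticulum, was at 10.67 to 10.96 in control and 10.91 to 11.49 with 0.1% wakame, a difference of 0.34 ± 0.14. Ppargc1a, a coactivator of gluconeogenic transcription, differed by 0.23 ± 0.13 at a mean signal of 6.01 in control, below the array median of 6.59. Pdk4, the kinase that shuts pyruvate dehydrogenase in fasting, was at −0.64 ± 0.45, opposite in direction to Pck1. Mdh1, the cytosolic malate dehydrogenase, was at −0.23 ± 0.09. None of these 4 separated the low arrays from control. G6pc1 was read only by probe sets listed under several genes and Irs2 was flat, so neither was measured.

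The upstream regions of Pck1, Igfbp1 and Pklr, a glycolytic gene described below, are shown because each holds a textbook hormone or glucose response motif and because the 3 genes lay in the directions given here. They were picked after a search, with the values known, of 11 motifs in 24 genes, 18 of which have an entry in the promoter table. Each is the 250 bases before the start in RefSeq assembly GRCr8, plus strand, at chr3:182348322-182348571, chr14:86261027-86261276 and chr2:176841014-176841263. Capitals mark the match.
Pck1: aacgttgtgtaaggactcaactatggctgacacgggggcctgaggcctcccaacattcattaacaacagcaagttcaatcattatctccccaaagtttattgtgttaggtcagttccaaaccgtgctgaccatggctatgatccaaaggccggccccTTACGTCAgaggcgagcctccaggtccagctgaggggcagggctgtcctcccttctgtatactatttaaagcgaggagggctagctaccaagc
Igfbp1: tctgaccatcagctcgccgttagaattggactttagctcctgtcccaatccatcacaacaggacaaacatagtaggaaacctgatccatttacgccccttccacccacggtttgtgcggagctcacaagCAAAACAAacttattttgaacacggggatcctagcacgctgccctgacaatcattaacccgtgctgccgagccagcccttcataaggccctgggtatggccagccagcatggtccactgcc
Pklr: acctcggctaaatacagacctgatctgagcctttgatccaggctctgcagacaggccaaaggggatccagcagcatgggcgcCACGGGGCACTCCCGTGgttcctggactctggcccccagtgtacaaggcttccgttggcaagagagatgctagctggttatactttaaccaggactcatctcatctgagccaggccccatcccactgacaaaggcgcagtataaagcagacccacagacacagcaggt
In Pck1 the capitals are TTACGTCA, a variant of the cAMP response element, which 0.75% of the 33469 promoters of this length hold on either strand. In Igfbp1 they are CAAAACAA, the minus-strand form of the insulin response sequence TTGTTTTG, found in 1.94%. In Pklr they are the carbohydrate response element, CACGNG and CNCGTG with 5 bases between them, found in 0.0209%. Both strands were searched for every motif. Among the 18 genes the other searched motifs were found as follows. TGACGTCA, the full cAMP element, was in Pnpla3 and Ppargc1a (1.59% of promoters). The short glucocorticoid element ACANNNTGT was in Tdo2 and Tsc22d3 (5.81%). The E-box CACGTG was in Klf15, Nr0b2 and Hycc2 (5.59%). CAAAACA, which overlaps the longer insulin response sequence, was in Igfbp1 alone of the 18 (5.46%). In a wider search of the 110 named genes with a promoter entry, the variant cAMP element and the carbohydrate element were in 1 gene each, as shown, and the insulin response sequence was in 2, Igfbp1 and Slc43a1. The short sterol element TCACNCCAC (0.974%) and the full glucocorticoid, sterol and HNF1 elements were in none of the 18 genes. They were not part of the wider search. A match is a string of letters and was not tested for binding.

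Genes of glycolysis lay lower with 0.1% wakame. Of 19 varying members, of 25 on the array, 15 lay lower and 4 higher, with a median of −0.18 log2. Unadjusted p was under 0.05 for 5 lower members and for 0 higher ones (the background is 6.26% and 4.61% of genes), and without low 4 for 3 lower ones, where 4.26% of all genes lay lower at that p. The mean signal of the list was 10.54 to 10.71 on the control arrays and 10.40 to 10.53 on the low arrays, without overlap. At 1% wakame it was 10.42 to 10.62, and 16 of the 19 lay below control.

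Gpi, which converts glucose 6-phosphate to fructose 6-phosphate, was at 9.81, 10.49, 9.84 and 9.49 in control and at 9.22, 9.31, 9.18 and 9.23 with 0.1% wakame. The low arrays were within a narrow band below every control array, a difference of −0.67 ± 0.22 (limma, adjusted p = 0.24). Pklr, the liver pyruvate kinase and a classic target of ChREBP, was at 10.06, 11.22, 10.94 and 10.38 in control and at 10.34, 9.67, 10.03 and 9.997 with 0.1% wakame. The diets overlapped, since control 1 was as low as the low arrays, and the difference was −0.64 ± 0.23 (adjusted p = 0.333). Tpi1 differed by −0.32 ± 0.10, the glycogen branching enzyme Gbe1 by −0.18 ± 0.08 and Pgam1 by −0.18 ± 0.08. Of these 3 only Gbe1 had separate arrays.

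**Figure D1:**
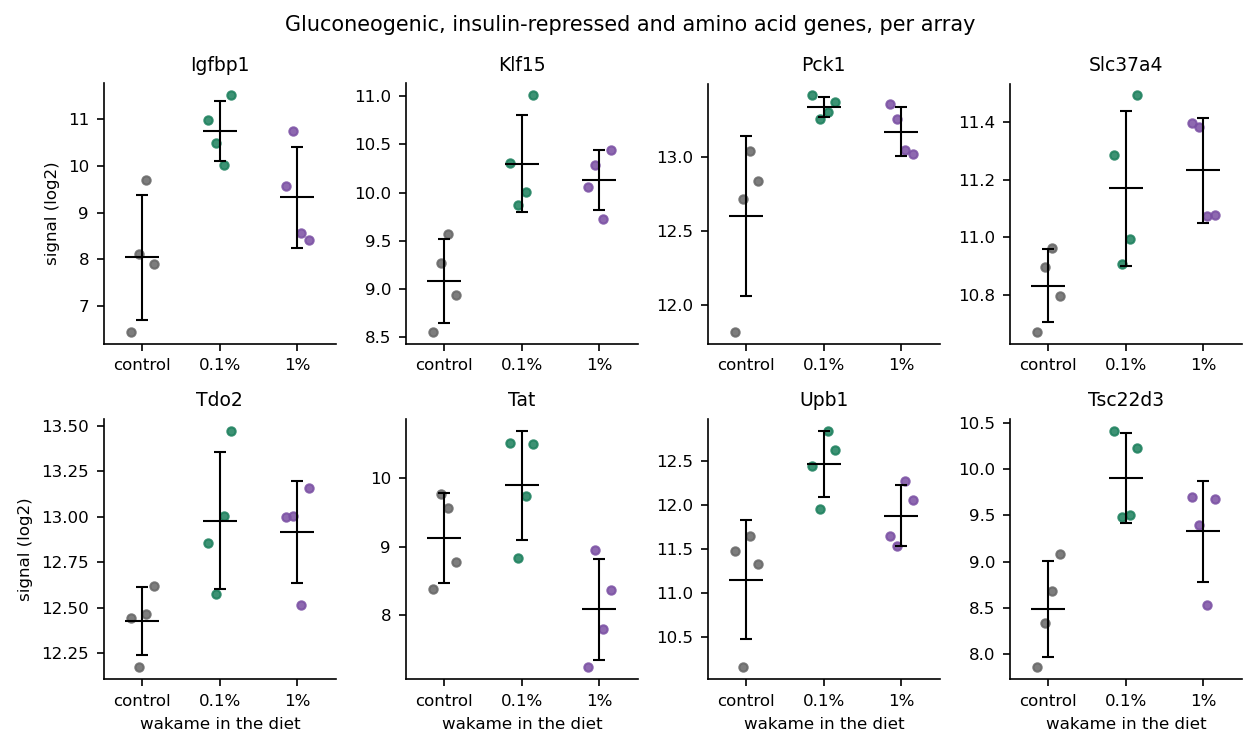
Signal on a log2 scale (vertical axes, which differ between panels and do not start at 0) of 8 genes in rats on control, 0.1% and 1% wakame. Points are single arrays, n = 4 per diet, and lines with bars are the mean and SD. All low arrays of Igfbp1, Klf15, Pck1, Upb1 and Tsc22d3 lie above control, those of Slc37a4, Tdo2 and Tat overlap it, and Tat is lowest at 1%.

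Most genes of amino acid breakdown lay slightly higher with 0.1% wakame. Enzymes of tyrosine, phenylalanine and tryptophan breakdown lay higher in 10 of 12 varying members, with a median of 0.07 log2. Glutamate handling and the urea cycle lay higher in 14 of 15, with a median of 0.09, of which 3 had an unadjusted p under 0.05 and 2 had separate arrays. Without low 4 these counts were 10 of 12 and 11 of 15, with 1 member under that p in each. Branched-chain, lysine, histidine and proline breakdown gave 11 of 17 higher, a median of 0.05 and no member with an unadjusted p under 0.05. Serine, glycine, threonine and sulfur amino acids gave 12 of 20 higher, with 1 higher and 2 lower members at that p. In amino acid transport and targets of ATF4, the transcription factor of amino acid shortage, 6 of 8 varying members lay higher. The other 21 members of that list were flat, Asns among them.

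Tat starts tyrosine breakdown and is induced by glucocorticoids and glucagon. It was at 8.38, 9.77, 9.57 and 8.78 log2 in control, at 10.52, 8.83, 9.75 and 10.50 with 0.1% wakame and at 7.23, 8.95, 7.80 and 8.36 with 1%. Low and control overlapped (0.77 ± 0.48, limma, adjusted p = 0.596), as low 2 and low 3 lay within the control range. The 0.1% and 1% diets differed by 1.81 log2 (unadjusted p = 0.00333, adjusted p = 0.498), with low 2 the only low array below the highest 1% array. Tdo2, which opens the ring of tryptophan, was at 12.44, 12.17, 12.47 and 12.62 in control and at 12.86, 12.58, 13.01 and 13.47 with 0.1% wakame. Low 2 again overlapped control, and the difference was 0.55 ± 0.19, with 0.49 at 1% wakame. Kmo, Aadat and Hpd, further enzymes of these routes, differed by 0.22 ± 0.13, 0.12 ± 0.08 and 0.23 ± 0.15.

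Nitrogen-handling genes gave small differences. Glud1, glutamate dehydrogenase, was at 11.70, 11.82, 11.94 and 11.77 in control and at 11.96, 11.96, 11.98 and 11.91 with 0.1% wakame, a difference of 0.15 ± 0.05, with 1 low array below the highest control. Slc25a22, a mitochondrial glutamate carrier, and Gpt2, an alanine aminotransferase, had low arrays wholly above control and differed by 0.42 ± 0.17 and 0.27 ± 0.11. These 3 enzymes and carriers act on glutamate. Of the urea cycle proper, Asl differed by 0.24 ± 0.16 and Cps1, the entry enzyme, by 0.04 ± 0.04. Slc25a13, the aspartate carrier that feeds the cycle, differed by 0.10 ± 0.06, and Glul, glutamine synthetase, by 0.31 ± 0.25.

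Sulfur, serine and other amino acid genes went both ways. Csad, of taurine synthesis, was at 11.28, 10.27, 11.56 and 12.14 in control and at 9.47, 10.28, 11.39 and 9.92 with 0.1% wakame, a difference of −1.05 ± 0.44 with overlapping arrays. Mat1a, which makes S-adenosylmethionine in liver, was at 0.36 ± 0.16, and Cdo1, which oxidizes cysteine, at 0.15 ± 0.08. Dld and Shmt2, of glycine use, were at −0.24 ± 0.08 and −0.17 ± 0.09. Sds, serine dehydratase, ranged from 5.18 to 9.26 in control and from 6.66 to 11.17 with 0.1% wakame, so its difference of 1.20 ± 1.11 was about as large as its error. Oat and Hal, which start ornithine and histidine breakdown, were at 1.06 ± 0.56 and 0.36 ± 0.17, and Gcdh, Mccc1 and Bckdhb at 0.31 ± 0.20, 0.19 ± 0.12 and 0.47 ± 0.46. Sesn2, a stress-induced inhibitor of mTORC1 signalling, was at 0.44 ± 0.19, and at 0.47 above the 1% diet (limma, unadjusted p = 0.0333, adjusted p = 0.697). Atf4 itself was at −0.25 ± 0.12, Slc43a1 and Slc38a2, which carry amino acids, at 0.30 ± 0.14 and 0.27 ± 0.19, and Nupr1 at 0.31 ± 0.31.

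Fat synthesis genes lay lower with 0.1% wakame, and how many reached an unadjusted p under 0.05 rested much on low 4. Of 29 varying members of fatty acid and triglyceride synthesis, of 38 on the array, 23 lay lower and 6 higher, with a median of −0.22 log2. Unadjusted p was under 0.05 for 8 lower members and 1 higher. Without low 4 it was under 0.05 for 1 lower member (3.45%, against 4.26% of all genes) and 1 higher, although 23 still lay lower and the median was −0.20. The mean signal of the list was 9.64 on low 4, 10.01 to 10.35 on the other low arrays and 10.23 to 10.93 on the control arrays. At 1% wakame it was 9.48 to 10.22, and 24 members lay below control.

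Mid1ip1, which promotes the polymerization of acetyl-CoA carboxylase, did not depend on low 4. It was at 10.43, 10.43, 9.68 and 10.04 in control, at 9.00, 8.67, 8.35 and 8.79 with 0.1% wakame and at 8.27, 9.01, 9.62 and 9.49 with 1%. Every low array lay below every control array, by 1.44 ± 0.29 on average (limma, adjusted p = 0.15), and with single low or control arrays left out or other settings the difference stayed between −1.60 and −1.32. It passed in none of these, but did with high 1 left out (limma), an alternative chosen after the data were seen. Elovl6, which elongates palmitate, was at 9.51, 10.46, 8.95 and 8.70 in control and at 8.38, 8.48, 8.22 and 6.89 with 0.1% wakame. Its arrays were separate too, at −1.41 ± 0.52, and low 4 was the lowest by more than 1 log2 unit. A dimmer probe set of Elovl6 gave −1.38 with overlapping arrays. Fasn, the fatty acid synthase, was at 11.37, 13.58, 11.68 and 11.05 in control and at 11.16, 10.56, 9.97 and 9.00 with 0.1% wakame. Low 1 overlapped the lowest control array, and the difference was −1.74 ± 0.72 (adjusted p = 0.391). Pnpla3, a lipid droplet protein induced by SREBP-1c and ChREBP, was at 12.40, 14.07, 11.09 and 11.96 in control and at 10.97, 10.14, 11.11 and 5.53 with 0.1% wakame. Low 4 alone was in the range of the 1% arrays, 5.03 to 9.74. The difference of −2.94 ± 1.39 was −1.64 without low 4.

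Of the remaining named lipogenic genes Lpin1 alone had separate arrays. Srebf1, the gene of SREBP-1, was at −0.59 ± 0.37, Acaca, acetyl-CoA carboxylase 1, at −0.71 ± 0.37, Me1, the malic enzyme that makes NADPH, at −1.38 ± 0.61 and Scd, the stearoyl-CoA desaturase, at −0.22 ± 0.11. Tkt, of the pentose phosphate pathway, was at −0.39 ± 0.15 and Agpat2, of triglyceride assembly, at −0.14 ± 0.06. Lpin1, a phosphatidate phosphatase and coactivator that fasting and glucocorticoids induce, was the member that lay higher at an unadjusted p under 0.05. It was at 7.93, 8.43, 8.48 and 8.67 in control and at 10.95, 8.69, 10.34 and 11.15 with 0.1% wakame, a difference of 1.91 ± 0.58 (limma, adjusted p = 0.228). Low 2 exceeded the highest control by a few hundredths, and the other 3 low arrays lay far above it. A dimmer probe set of Lpin1 differed by 2.29.

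Cholesterol synthesis genes lay lower in count, and low 4 set much of the size. Of 16 varying members 13 lay lower and 3 higher, with a median of −0.32 log2 and 1 member, Pmvk, at an unadjusted p under 0.05. Without low 4, 10 lay lower and 6 higher with a median of −0.045, and without low 2 the median was −0.49. The mean signal of the list was 8.61 on low 4 and 9.47 to 9.63 on the other low arrays, against 9.48 to 9.76 on the control arrays. Pmvk, of the mevalonate route, was at −0.48 ± 0.21, Dhcr7, the last step to cholesterol, at −0.60 ± 0.35, Msmo1 at −0.59 ± 0.37, Sqle, squalene epoxidase, at −0.49 ± 0.29 and Acat2 at −0.42 ± 0.31. None had separate arrays.

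Bile acid and sterol export genes lay higher with 0.1% wakame. Of 19 varying members, of 25 on the array, 15 lay higher and 4 lower, with a median of 0.13 log2. Unadjusted p was under 0.05 for 6 higher members and 0 lower, and without low 4 for 4 higher (2.96% of all genes there). At 1% wakame 15 also lay above control. Cyp7a1, the rate-limiting enzyme of bile acid synthesis, was at 6.00, 7.42, 7.57 and 7.27 in control, at 8.74, 8.00, 9.04 and 8.43 with 0.1% wakame and at 7.23, 5.76, 7.97 and 8.55 with 1%. Its low arrays all lay above control, by 1.49 ± 0.56 (limma, adjusted p = 0.357), while the 1% arrays spread over both. Low minus high was 1.18 (unadjusted p = 0.0599). Nr0b2, the repressor SHP that bile acids induce and that represses Cyp7a1, was at 6.83, 7.77, 9.21 and 7.35 in control and at 10.11, 9.38, 8.58 and 10.83 with 0.1% wakame. It overlapped control through low 3 and control 3 and differed by 1.93 ± 0.59. Abcb4, the phospholipid pump of the bile canaliculus, had separate arrays and differed by 0.81 ± 0.21, with 0.96 at 1% wakame. Acox2 and Akr1c14, which act on bile acid precursors, were at 0.51 ± 0.20 and 0.33 ± 0.13.

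Fatty acid oxidation and lipoprotein genes gave no common direction. Of 26 varying oxidation and ketogenesis members 10 lay higher and 16 lower, with a median of −0.02 and 1 member at an unadjusted p under 0.05. That was Cpt1a, the gate of fatty acids into mitochondria, at 10.75, 10.92, 11.15 and 10.54 in control and 11.85, 11.34, 11.21 and 11.87 with 0.1% wakame. Its low arrays lay just above control, by 0.73 ± 0.30, and a dimmer probe set gave 0.17. Acaa2, of beta-oxidation, was at 0.45 ± 0.21 and had separate arrays by a small margin, 11.886 against 11.877. A dimmer probe set of Acaa2 gave 0.21 with overlapping arrays. Hacl1, Phyh and Slc27a5 were at 0.68 ± 0.35, 0.31 ± 0.24 and 0.70 ± 0.55. Lipoprotein genes split 9 and 9, with a median of 0.01. Angptl8, an insulin-induced regulator of lipoprotein lipase, was at −1.40 ± 0.66, and Apoc3, Apom and Apoc2 at 0.05 ± 0.03, 0.33 ± 0.17 and 0.07 ± 0.05.

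**Figure D2:**
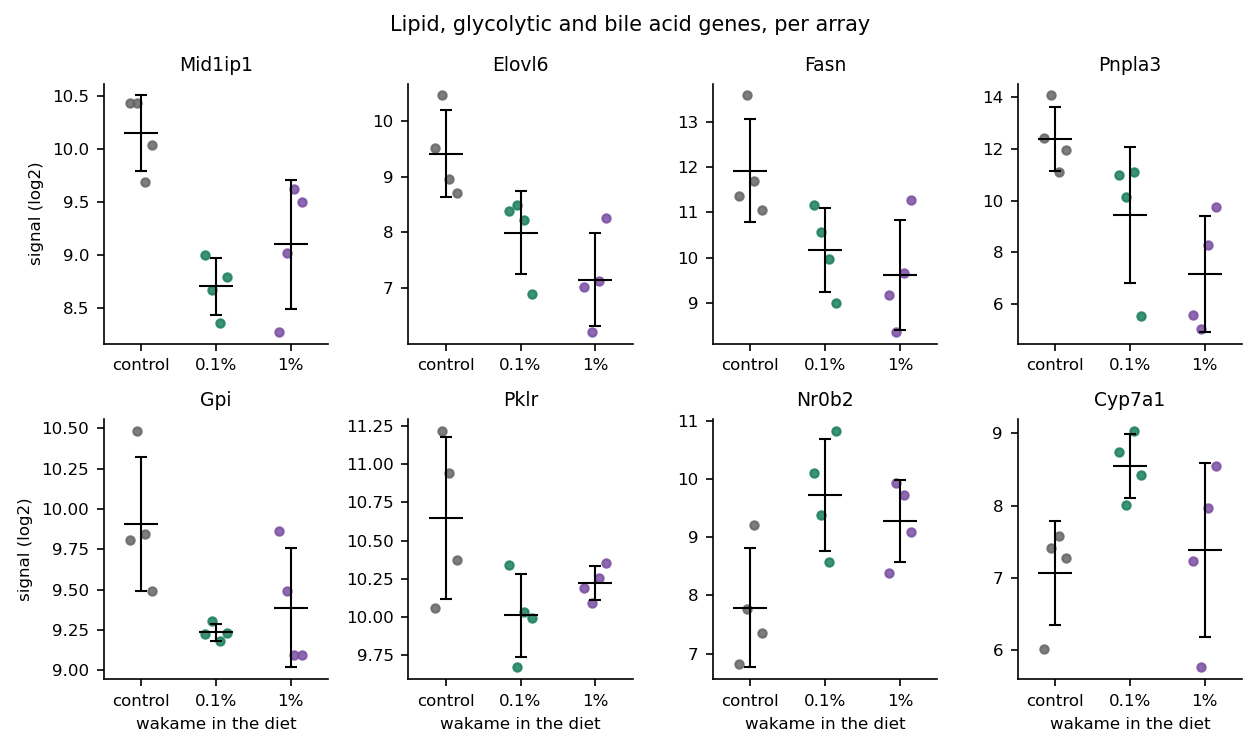
Signal on a log2 scale (vertical axes, which differ between panels and do not start at 0) of 8 lipid, glycolytic and bile acid genes in rats on control, 0.1% and 1% wakame. Points are single arrays, n = 4 per diet, and lines with bars are the mean and SD. The low arrays of Mid1ip1, Elovl6 and Gpi lie below all controls and those of Cyp7a1 above, and 1 low array of Pnpla3, at 5.53, lies apart from the other 3.

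**Figure D3:**
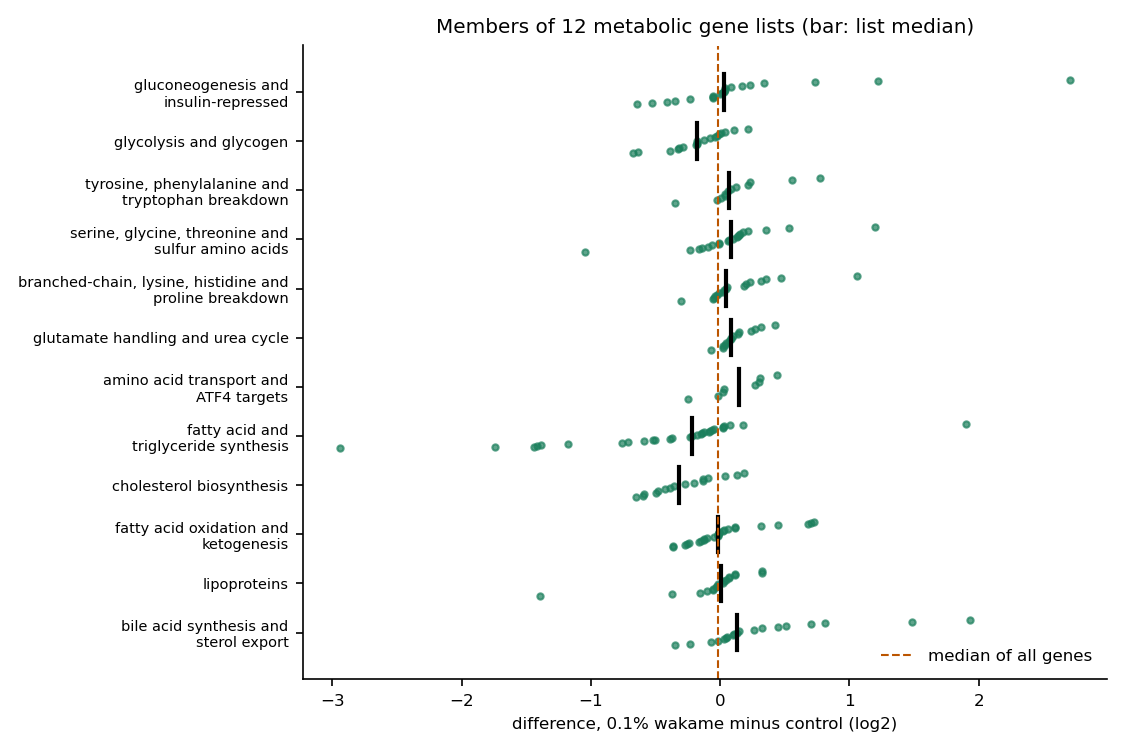
Difference from control in log2 signal at 0.1% wakame (horizontal axis) of the varying members of the glucose, amino acid and lipid gene lists. Points are genes, without error bars, and black bars are list medians. The dashed line is the median of all genes. Medians are −0.22 for fat synthesis, −0.32 for cholesterol synthesis and −0.18 for glycolysis. At 1% wakame, which is not drawn, they were −0.36, −0.56 and −0.17 against the same 4 control arrays.

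Outside these lists, the genes with the smallest unadjusted p and separate arrays were led by Hycc2. It encodes a partner of the lipid kinase that makes phosphatidylinositol 4-phosphate at the plasma membrane. Hycc2 was at 8.78, 8.56, 8.67 and 8.61 in control and at 9.29, 9.29, 9.55 and 9.48 with 0.1% wakame, and differed by 0.75 ± 0.12 (limma, adjusted p = 0.0778). The diets were far apart for their spread, and the 1% arrays were at 9.39 to 9.95. Rtp3, a liver-enriched member of the receptor-transporting protein family, was at 10.34, 10.13, 10.16 and 10.12 in control. With 0.1% wakame Rtp3 was at 8.84, 9.39, 8.24 and 8.24, a difference of −1.51 ± 0.26 (limma, adjusted p = 0.0778). Without low 2, Rtp3 passed (−1.75, adjusted p = 0.0315). Asap2, which acts on Arf GTPases, differed by −0.36 ± 0.06 (adjusted p = 0.0778). All 3 also lay apart from control at 1% wakame, at 0.97, −1.12 and −0.45.

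Further genes met the same rule, each with low arrays wholly above or below control. Tsc22d3, the glucocorticoid-induced leucine zipper protein, was at 7.86, 8.33, 8.68 and 9.08 in control and at 10.42, 9.48, 9.51 and 10.23 with 0.1% wakame, a difference of 1.42 ± 0.34. Mfsd2a, a lysophospholipid transporter, was at 6.84, 7.22, 8.03 and 8.28 in control and at 10.71, 9.27, 8.80 and 10.45 with 0.1% wakame, a difference of 2.22 ± 0.53. Both had an adjusted p of 0.19 (limma), and at 1% wakame Tsc22d3 was at 0.84 and Mfsd2a at 1.23 above control. Upb1, the last enzyme of pyrimidine breakdown, lay higher by 1.31 ± 0.32, the proteoglycan Sdc4 by 0.99 ± 0.22 and Gucd1 by 1.04 ± 0.21. Aopep, an aminopeptidase, was at 0.57 ± 0.11, the membrane-to-actin linker Baiap2l1 at 0.66 ± 0.14 and Zfp446 at 0.95 ± 0.24. Lying lower, the actin-binding Svil was at −0.49 ± 0.11, Mocs2, of molybdenum cofactor synthesis, at −0.65 ± 0.15 and the activin subunit Inhba at −0.58 ± 0.14. The apoptosis inhibitor Birc2 was at −0.61 ± 0.14, Ajuba at −0.41 ± 0.10 and Zfp68 at −0.40 ± 0.09. A brighter probe set of Inhba was at −0.44 with overlapping arrays. At 1% wakame Upb1, Sdc4 and Gucd1 lay above control by 0.72, 0.93 and 0.70, and Aopep, Baiap2l1 and Zfp446 by 0.53, 0.71 and 0.92. Svil, Mocs2 and Inhba were at −0.48, −0.62 and −0.33 there, and Birc2, Ajuba and Zfp68 at −0.83, −0.46 and −0.49.

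Whether a difference is particular to the small dose was asked by testing 0.1% against 1% wakame directly. This test made 0 calls among 3240 probe sets (limma, 0% called, smallest adjusted p = 0.246), with 219 at an unadjusted p under 0.05 (6.76%). The contrast of 0.1% with the mean of both other diets also made 0 calls (0%), with 174 at that p (5.37%). With low 1 left out, both contrasts called 1 probe set, 1397977_at, which has no gene named here. It was at 6.69 on low 1 and at 7.83, 7.63 and 7.71 on the other low arrays, against 6.84 to 7.06 in control and 6.52 to 6.86 with 1% wakame. In 10 probe sets (0.309%) all 4 low arrays lay above, or all below, all 8 other arrays. They stand for 6 named genes and 3 probe sets without a name, and nothing in them passed. Some probe sets separate in this way by chance, and whether 10 exceeds that number was not tested. As the same arrays picked them, the p-values given for them below are no independent support.

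Among these 10, a probe set of Spink1 had the smallest p against 1% wakame. Spink1 encodes a secreted trypsin inhibitor that also behaves as an acute phase protein of liver. By probe set 1387193_a_at it was at 8.15, 8.74, 7.97 and 7.58 log2 in control, at 7.18, 5.97, 6.10 and 6.46 with 0.1% wakame and at 8.84, 7.59, 8.76 and 8.19 with 1%. The low arrays lay below all others, by 1.68 ± 0.35 from control (limma, adjusted p = 0.19) and by 1.92 from the 1% diet (unadjusted p = 0.000244, adjusted p = 0.246). Probe set 1368447_x_at ran alike, at −1.42 against control and −1.66 against 1% wakame. The third, 1368446_at, was the brightest and disagreed: it was at 0.26 ± 0.48 against control, with low arrays from 7.08 to 9.68, and turned to −0.24 without low 4. The sign for Spink1 against control thus depended on the probe set. Against 1% wakame 1368446_at lay lower like the others, at −0.96 (limma, unadjusted p = 0.0704, adjusted p = 0.774), with overlapping arrays. Its 1% arrays lay above control by 1.22 on average. Probe sets 1387193_a_at and 1368447_x_at averaged 6.43 and 6.54 on the low arrays, below the array median of 6.59.

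The other named genes with the low arrays apart gave smaller differences. Per1, a clock gene that glucocorticoids also induce, was at 7.17, 7.16, 7.39 and 7.40 in control, at 7.73, 7.69, 7.62 and 8.14 with 0.1% wakame and at 7.60, 7.41, 7.15 and 7.58 with 1%. It lay higher by 0.51 ± 0.14 than control and by 0.35 than 1% wakame (limma, unadjusted p = 0.0251, adjusted p = 0.655). Its low arrays cleared the highest 1% array by a small margin. Etl4 was at −0.35 ± 0.08 against control and −0.22 against 1% wakame, and Mex3b, an RNA-binding protein, at −0.26 ± 0.13 and −0.42. Arhgap42 was at −0.20 ± 0.08 and −0.35, with 1% wakame above control. Its other varying probe set was at −0.18 and −0.31 for the same differences. There the low arrays overlapped control and lay below every 1% array by a small margin, 8.72 against 8.73. Ankrd13c, at 0.04 ± 0.04 and 0.06, differed by under 0.1 log2 from both diets. Apoa5, an apolipoprotein that lowers plasma triglyceride, was at 11.23, 11.31, 11.27 and 11.49 in control, at 11.73, 11.81, 11.49 and 11.58 with 0.1% wakame and at 11.44, 11.49, 11.11 and 11.47 with 1%. It lay higher by 0.33 ± 0.10 than control and by 0.28 than 1% wakame (unadjusted p = 0.0205), but its lowest low array met the highest arrays of the other diets.

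**Figure D4:**
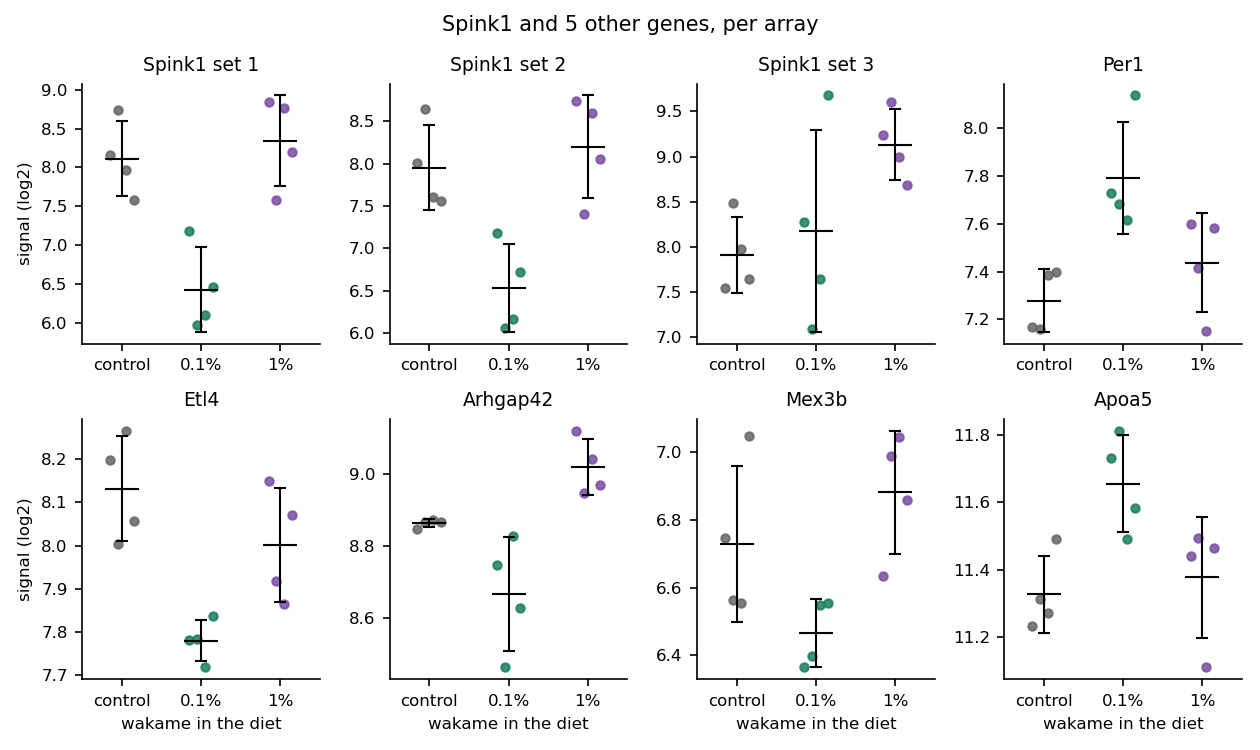
Signal on a log2 scale (vertical axes, which differ between panels and do not start at 0) of 3 Spink1 probe sets and 5 other genes on control, 0.1% and 1% wakame. Points are single arrays, n = 4 per diet, and lines with bars are the mean and SD. Sets 1 and 2 of Spink1 are 1387193_a_at and 1368447_x_at, with all low arrays below the 8 others. Set 3, 1368446_at, spreads from 7.08 to 9.68 at 0.1% wakame, and the lowest low array of Apoa5 lies level with the highest of control and 1%.

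Bcl6, Onecut1 and Nr1d1 had mean signals at 0.1% wakame between those of the other diets. Bcl6, a repressor that growth hormone lowers in liver, was at 5.57 to 6.72 in control, at 7.11, 7.06, 10.18 and 10.13 with 0.1% wakame and at 10.22 to 12.12 with 1%. Its low arrays fell into a pair near control and a pair near the 1% arrays, all above control, by 2.40 ± 0.77 (limma, adjusted p = 0.24). Onecut1, the hepatocyte factor HNF6, was at 10.91 to 12.23 in control, 9.82, 10.53, 8.63 and 9.18 with 0.1% wakame and 7.23 to 9.48 with 1%, a difference of −1.75 ± 0.54 from control at the small dose. Nr1d1, the clock repressor REV-ERBalpha, was at 7.28, 7.24, 7.78 and 8.60 with 0.1% wakame against 6.31 to 6.91 in control, a difference of 1.21 ± 0.33. All 3 had separate low and control arrays and none passed. Low minus high was −2.82, 1.41 and −0.77 (limma, unadjusted p = 0.00401, 0.0244 and 0.0391).

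Among lists beyond glucose, amino acids and fat, cell cycle genes all lay lower. The 13 varying members, of 32 on the array, had a median of −0.17 log2, and 6 had an unadjusted p under 0.05, with 6 of 13 again without low 4, where 1 member lay higher. The mean signal of the list was 7.36 to 7.74 in control and 7.12 to 7.26 with 0.1% wakame, little above the array median of 6.59. Ccna2 and Ccnb1, the mitotic cyclins A2 and B1, were at −0.65 ± 0.19 and −0.30 ± 0.09. Ccna2 averaged 5.89 on the low arrays, below that median. At 1% wakame 12 of the 13 lay below control, with a list median of −0.30. Phase II and NRF2 targets lay lower in 17 of 23, with a median of −0.28 and 5 lower members at an unadjusted p under 0.05, and 5 also without low 4. Nqo1, a quinone reductase, was at 10.63, 9.30, 10.05 and 9.51 in control and at 8.00, 8.09, 8.03 and 8.10 with 0.1% wakame. The low arrays lay in a narrow band below every control array, by 1.82 ± 0.42 (limma, adjusted p = 0.19). Gstm1, a glutathione transferase, was at −0.28 ± 0.08. At 1% wakame 18 of the 23 phase II and NRF2 targets lay below control, with a median of −0.20.

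Clock genes gave 8 higher and 7 lower of 15, and unadjusted p was under 0.05 for 3 higher and 3 lower members, with 3 members wholly above control. Without low 4 it was under 0.05 for 3 higher and 1 lower. The members wholly above control were Per1, Nr1d1 and Nr1d2, all repressors within the clock, and Nr1d2, named after its values were seen, was at 0.90 ± 0.25. Cytochrome P450 genes lay higher in 17 of 25, 3 at an unadjusted p under 0.05 and 0 without low 4, with Cyp2e1 at 0.90 ± 0.35 and Cyp2a1 at 0.48 ± 0.18. The unfolded protein response gave 8 higher and 10 lower, with 2 and 1 at that p, and Herpud1, of protein disposal in the endoplasmic reticulum, had separate arrays at 1.22 ± 0.31 and Dnajb9 was at 0.62 ± 0.22. Growth hormone signalling and sex-biased genes gave 8 and 12, with 2 each way at that p and Ghr, the growth hormone receptor, at −0.37 ± 0.10. Metal handling gave 5 and 4, with 1 higher at that p, and the metallothioneins Mt2A at 2.27 ± 1.01 and Mt1 at 0.19 ± 0.11. Acute phase and inflammation gave 11 and 7, with 3 higher members at that p, also without low 4, Il6r at 1.10 ± 0.33 and Apcs at 0.21 ± 0.07 among them.

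Marker lists checked the tissue and other cells it could hold. Hepatocyte markers were bright, with a mean signal of 11.92 to 12.11 log2 on the control arrays and 12.16 to 12.36 on the low arrays, without overlap, and 8 of 11 varying members lay higher. Their list includes Tat, Hal, Cps1 and Cyp2e1, which the lists above also hold, and 2 members, Cyp2e1 and Hnf4a, had an unadjusted p under 0.05. Its part in the metabolic differences was not tested. Kupffer cell markers, of liver macrophages, lay higher in 8 of 8 varying members by 0.0034 to 0.45, none at that p, with overlapping list means of 8.87 to 9.55 and 8.90 to 9.51. Cd14 was at 0.45 ± 0.29 and Csf1r at 0.13 ± 0.17. Stellate markers gave 3 higher and 2 lower, with Colec11 at 0.22 ± 0.09 and Reln at 0.17 ± 0.13. Endothelial markers (Stab2 at 0.14, Lyve1 at 0.04), lymphocyte markers (Gzmb at −0.06, Ptprc at −0.01), the neutrophil marker S100a9 at −0.14 and erythroid markers (Hbb at 0.49, Alas2 at 0.06) had 1 or 2 varying members each. Adipose, muscle and pancreas markers gave 3 higher and 1 lower, with Cfd at 0.16 and Cpb1 at 0.09. All 6 cholangiocyte markers on the array were flat. In whole liver, fewer cells of a type and less RNA per cell cannot be told apart.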

How the data were processed

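Total RNA from the liver of each rat was labelled with biotin from 100 ng and hybridised to a rat expression array, per the labels' protocols. The small number of arrays limits precision. The authors deposited 1 table of values per array, which are read here as log2 signal because they run from 3.15 to 14.6. The submitters' processing notes name R 2.7.2. How background, normalization and probe summaries were handled was not given in the sources used here, so the cause of the 27802 flat probe sets is unknown, and a flat value does not show that a gene did not differ. Gene symbols came from the platform annotation, which can be old.

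Means per diet were fitted to all 12 arrays with limma 3.58.1 in R 4.3.3, with variances moderated along a trend. The contrasts were 0.1% against control, against 1% and against the mean of both, and p was adjusted by Benjamini-Hochberg over the 3240 varying probe sets with a threshold of 0.05. The fit was tested on simulated data. Errors after ± are SE for differences and SD for groups. Where a gene had several varying probe sets the brightest stood for it in the 29 gene lists. The limit of 0.01 on the SD, the members, the lists and the genes fixed by name were chosen with earlier results of these data known. Named genes were up to 12 each way with separate arrays and the smallest p, up to 8 with the low arrays apart from all 8 others, the top 5 of each glucose, amino acid and lipid list and top 2 of the rest, and a fixed set of names. With 4 arrays per diet an exact permutation test cannot go below p = 0.0286. The limma p-values set each difference against the spread between livers within diets over all 12 arrays, with no term for cage.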

Additional observations from a re-analysis of the deposited data

Results flagged for a closer look

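Single arrays stood apart within their diet in 12 of 250 groups of 4 arrays examined, and chance alone flags about 1 in 20 groups. In the 0.1% group, low 4 was the lowest for Elovl6 (6.89 log2) and for Msmo1 (8.05). Low 2 was the highest for Zfp68 (7.35), Ccna2 (6.28) and Agpat2 (9.36). Low 3 was the lowest for Mt1 (6.55) and the highest for Cpb1 (7.37). In the control group, control 1 was the highest for Gbe1 (12.62) and the lowest for Asl (9.59), control 3 was the lowest for Acaa2 (11.03), and control 4 was the highest for Onecut1 (12.23) and the lowest for Agpat2 (9.28). For Arhgap42, by 1 of its 2 varying probe sets, every 0.1% array lay below every control array and every 1% array above, with a difference between the doses of −0.35 log2 (limma, adjusted p = 0.42). For Ankrd13c every 0.1% array lay above the control mean and every 1% array below it, and the doses differed by 0.059 (adjusted p = 0.859).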

How the results depend on the processing

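Of 3240 probe sets, 2 were called for 0.1% wakame against control. Other SD limits (0.05 and 0.1), leaving out dim probe sets and dropping the variance trend also gave 2. Over all 31042 probe sets 5 were called, every one a change below 1e-06 log2, and neither of the former. With 1 probe set per gene 0 were called, but both called probe sets have no symbol and were not among those tested. With quantile normalization, median centring or array weights 1 each, and with only the control and low arrays 0. With the replicate number as a block 0 were called (limma, smallest adjusted p = 0.0981). The numbers did not pair the samples, as deviations of same-numbered control and low arrays correlated at −0.070 to 0.092. Leaving out 1 low or control array gave 0 to 3. Leaving out 1 of the 1% arrays, an alternative chosen after the data were seen, gave 0 to 8, with Aopep, Birc2, Hhex, Hycc2, Mid1ip1 and Nqo1 called without high 1 and Gucd1 and Hycc2 without high 3.

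For 0.1% against 1% all probe sets gave 6 calls and for 0.1% against the mean of both other diets 8, all below 1e-06 log2. Leaving out single arrays gave 0 or 1 in both. List medians that moved by more than the spread between arrays were glycolysis at −0.060 and cholesterol synthesis at −0.14 over all probe sets, and amino acid transport with ATF4 targets at 0 over all probe sets and 0.28 above an SD of 0.1. With arrays left out the last ran from 0.072 to 0.30 and cholesterol synthesis from −0.49 to −0.045. Signs turned for Ptprc, at 0.026 after quantile normalization, 0.017 after centring and −0.10 to 0.085 with arrays left out. They turned for Lyve1, at −0.0013 with array weights and −0.0099 to 0.11 with arrays left out, and for Spink1 by its brightest probe set, at −0.24 to 0.63. Quantile normalization and centring moved the median of all differences by under 0.1 log2. No background or detection call was available, so differences of probe sets near the array median may understate a change.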

Other observations

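The low arrays lay apart from all 8 others also for 3 probe sets with no gene named here. Probe set 1377208_at was at 6.64 to 7.23 log2 in control, 7.86 to 8.19 with 0.1% wakame and 7.09 to 7.85 with 1% (low minus control 0.99 ± 0.17, limma, adjusted p = 0.0778). Probe set 1382500_at was at 8.13 ± 0.25 in control, 8.58 ± 0.20 with 0.1% and 8.13 ± 0.09 with 1% (SD, n = 4). Probe set 1386002_at was at 7.92 ± 0.15, 7.59 ± 0.19 and 7.91 ± 0.13.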
